A study of Drosophila melanogaster with 18 samples.

Results

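Small heat shock proteins are chaperones that share an α-crystallin domain. They bind unfolding proteins without using ATP and hold them until the ATP-dependent Hsp70 machinery can refold them or hand them over for degradation. In *Drosophila melanogaster* several of their genes lie side by side at the 67B locus, respond to heat shock factor (Hsf) on acute heat shock, and are also used during development and ageing without any heat shock. The 7 genes described here were chosen by symbol: *Hsp22*, *Hsp23*, *Hsp26*, *Hsp27*, *Hsp67Ba*, *Hsp67Bc* and *l(2)efl*. All 7 were among the 8200 genes whose values were high enough to be tested.

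The libraries came from heads of Canton-S flies, a wild-type strain, kept at 1 of 3 temperatures, 18°C, 25°C and 29°C, in cycles of 12 h of light and 12 h of darkness. Each temperature was sampled at zeitgeber times ZT3, ZT7 and ZT11, in the light phase, and ZT15, ZT19 and ZT23, in the dark phase (hours after lights on). Polyadenylated RNA was sequenced from its 3′ end, with 1 library for each temperature and time, 18 in all. All flies carried the same genotype and no treatment beyond temperature was given. Sex and age of the flies are not given in the sources used here. The flies had been held at their temperature for days, so the comparisons are between standing temperatures, not before and after a heat shock. The labels do not say that libraries came from separate cultures. The 6 times of day served as the replicates of a temperature, and p-values therefore measure only the spread between these libraries.

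Values are called signal, which is the number of reads of a transcript's 3′ end divided by 1 constant for each library. The libraries held an estimated 1.24 to 6.62 M reads (median 3.11 M), and 3 reads, the smallest number taken as detected, correspond to a signal between 1.54 and 7.36. Some libraries stood apart in genes of other tissues. The library of 18°C at ZT19 held the flight muscle genes *Act88F* at 2235, *TpnC4* at 609.9 and *fln* at 603, whereas no other library exceeded 39.8, 9.67 and 2.58. For the 7 genes and the chaperones, temperature comparisons that involve 18°C are therefore also given without it. The marker genes and the light-dark and rhythm tests are given with all libraries. The gut proteases *alphaTry*, *betaTry* and *Jon65Aiii* peaked at 102, 100.5 and 149.7 in the 29°C ZT3 library, against medians over all libraries of 1.22, 2.09 and 0. The remaining gut marker, *Amy-d*, behaved differently. It was present in every library (median 201) and was highest in the 18°C ZT19 library, at 360. Testis markers reached at most 30.3, in the 29°C ZT19 library, and ovary markers at most 13.7. Both sets were at 0 in most libraries. The neuron and photoreceptor markers expected of heads were present in every library.

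Of the 7 genes, 6 lie in the 67B cluster, a stretch of 13.8 kb on chromosome arm 3L (9364611 to 9378382, build dm3, on which all positions here are given). From left to right these are *Hsp67Bc* (9364611 to 9365597, minus strand), *Hsp22* (9367097 to 9368064, plus strand), *Hsp26* (9369518 to 9370475, minus strand), *Hsp67Ba* (9370902 to 9372634, minus strand), *Hsp23* (9374982 to 9375865, plus strand) and *Hsp27* (9377163 to 9378382, plus strand). The cluster also holds *CG4461*, another α-crystallin gene, and *Hsp67Bb*. *l(2)efl* lies elsewhere, on arm 2R (19572174 to 19573066, minus strand). In a later annotation (Ensembl 115) the 6 cluster genes have transcripts of a single exon, except a longer *Hsp22* transcript of 3 exons, and *l(2)efl* has 3 exons. The encoded proteins have 174 residues for *Hsp22*, 186 for *Hsp23*, 187 for *l(2)efl*, 199 for *Hsp67Bc*, 208 for *Hsp26*, 213 for *Hsp27* and 445 for *Hsp67Ba*.

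Some of these 3′ ends are shared or close to others, which limits what a value can be assigned to. The values of *Hsp22* are identical to those of a long transcript listed under *Hsp67Bb* (9366031 to 9368064) that ends at the same base, so the reads cannot be divided between the 2 names. The short *Hsp67Bb* transcripts, with ends of their own, were at 0 in 15 of 18 libraries and never exceeded 5.50. The 3′ ends of *Hsp26* and *CG4461* face each other 124 bases apart, and *St3* on the opposite strand overlaps the 3′ end of *l(2)efl* by 75 bases. *St3* ranged from 14.8 to 76.0, far below *l(2)efl*. Whether strand was used in counting is not stated. *Hsp27* has a second 3′ end 412 bases away in the later annotation that was not analysed here.

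At every temperature *l(2)efl* was the most abundant of the 7. Because reads come from the 3′ end alone, a value does not grow with transcript length, and levels were set side by side as deposited. *l(2)efl*, which encodes a protein related to mammalian αB-crystallin, had a signal of 418 ± 102 at 18°C, 523 ± 54.9 at 25°C and 722 ± 79.8 at 29°C (mean ± SD, n = 6). It made up 75.5% ± 7.10 of the summed signal of the 7 genes at 18°C, 77.5% ± 2.29 at 25°C and 74.3% ± 2.84 at 29°C. *Hsp22* was second at each temperature and *Hsp27*, at its analysed 3′ end, last. The range of *l(2)efl* overlapped with no other member. From *Hsp22* downwards, the range of each gene overlapped with that of the next in order. Differences in level between these neighbours were not tested. Genes further apart could be separated: at 29°C the libraries of *Hsp22* and of *Hsp23* were all above those of *Hsp67Bc*, *Hsp67Ba* and *Hsp27*. Summed over the 7 genes, the 18°C libraries had a signal of 549 ± 92.7, those of 25°C 675 ± 78.6 and those of 29°C 974 ± 109.

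**Figure D1:**
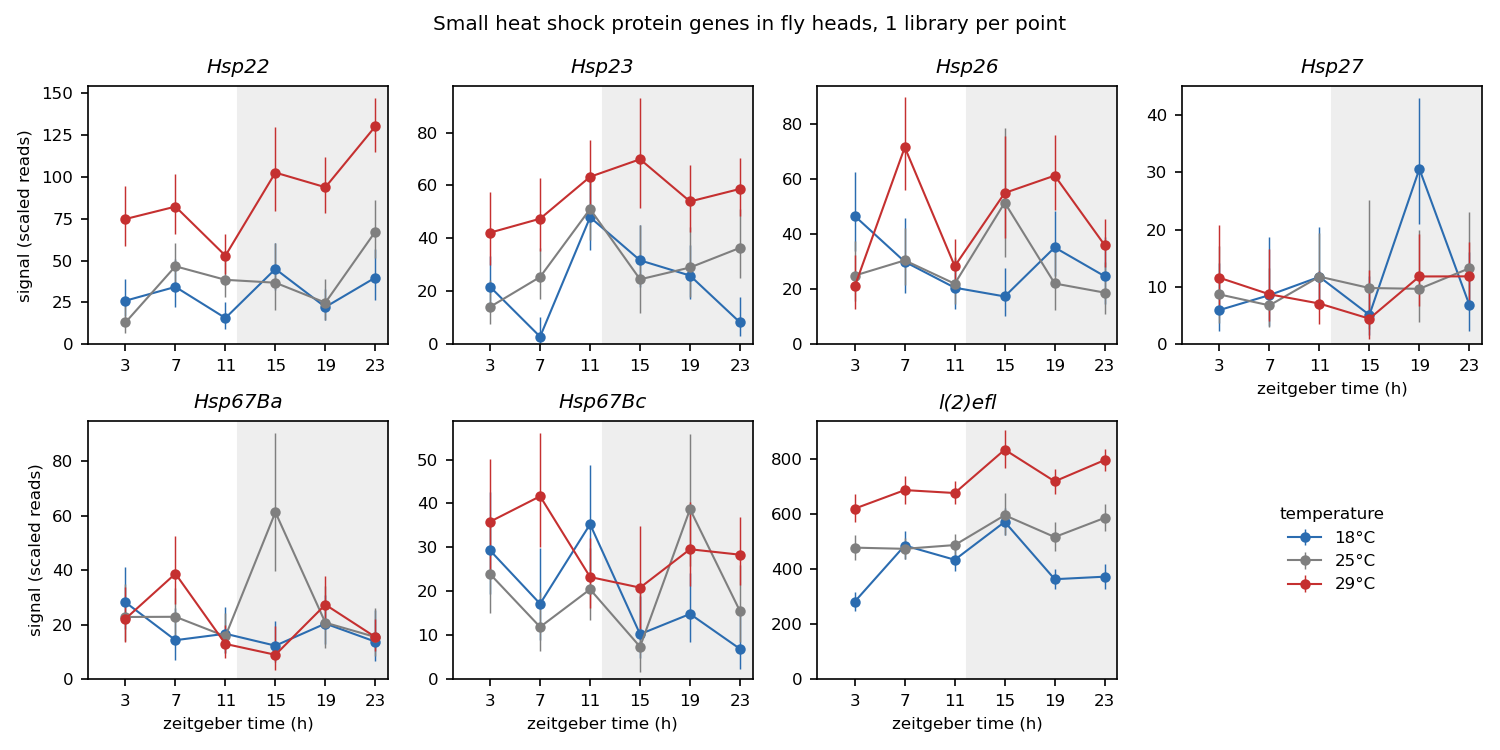
Signal (reads scaled by 1 constant per library, linear axes from 0) of the 7 genes against zeitgeber time, 1 point per library, coloured by temperature. Bars are exact 95% Poisson intervals of the read number and cover counting error only, and grey marks the dark phase. The 29°C points of *Hsp22*, *Hsp23* and *l(2)efl* lie above both other temperatures at all 6 times, while *Hsp27* at 18°C ZT19 and *Hsp67Ba* at 25°C ZT15 stand far above their own groups.

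Temperature was asked about first, over all times of day. Between 29°C and 18°C, 3 of the 7 genes were higher at 29°C, *Hsp22*, *Hsp23* and *l(2)efl*, and none was lower. Here and below, a gene is called changed at a limma p under 0.05 after Benjamini-Hochberg adjustment over all 8846 tested rows, on log2(signal + 1). That scale understates the change of genes with low values. Among all rows, 23.1% were called, 10.5% higher at 29°C and 12.6% lower. The median log2 change of the 7 genes was 0.79, against 0.05 over all rows. The number called was 3 also without the 18°C ZT19, the 29°C ZT3 or the 29°C ZT19 library. Without 29°C ZT3 the log2 changes of *Hsp22*, *Hsp23* and *l(2)efl* were 1.59, 1.71 and 0.86, and without 29°C ZT19 they were 1.53, 1.64 and 0.82 (limma adjusted p of at most 0.0103).

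*Hsp22*, a chaperone of the mitochondrial matrix, had a signal from 15.7 to 45.0 at 18°C (median 30.2), from 13.0 to 67.4 at 25°C (median 37.7) and from 53.0 to 130.3 at 29°C (median 88.1). Every 29°C library was above every 18°C library, as in 4.95% of all rows, and 5 of 6 were above every 25°C library. At all 6 times of day the 29°C value exceeded both others. For such counts of times, here and below, the share over all rows was not computed. Means were 30.5 ± 11.1, 37.9 ± 18.6 and 89.5 ± 26.3, a ratio of 2.93 for 29°C over 18°C. The log2 change was 1.55 (SE 0.32, 95% CI 0.91 to 2.20, limma adjusted p = 0.000449), and 1.48 (adjusted p = 0.00159) without the 18°C ZT19 library. *Hsp22* was represented by 12 to 253 reads in a library.

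*Hsp23*, a cytosolic member, ranged from 2.86 to 48.0 at 18°C (median 23.8), from 14.1 to 51.1 at 25°C (median 27.2) and from 42.2 to 69.9 at 29°C (median 56.3). The 29°C value was the higher at all 6 times against both other temperatures, although the ranges overlapped: the ZT11 libraries at 18°C and 25°C reached into the 29°C range. The spread narrowed towards the higher temperatures, with a coefficient of variation of 70.8% at 18°C, 41.8% at 25°C and 18.3% at 29°C; this difference in spread was not tested. Its lowest value, at 18°C ZT7, rests on 2 reads and lies under the floor of that library. The log2 change for 29°C against 18°C was 1.63 (SE 0.43, 95% CI 0.76 to 2.51, limma adjusted p = 0.00507). It was 1.75 (adjusted p = 0.00534) without the 18°C ZT19 library.

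*l(2)efl* ranged from 282 to 572 at 18°C (median 403), from 474 to 596 at 25°C (median 502) and from 620.1 to 835 at 29°C (median 703). The 29°C libraries overlapped with neither other temperature, whereas the 18°C and 25°C libraries did overlap with each other. Rows whose libraries did not overlap between 29°C and 18°C, with 29°C higher, made up 4.95% of all rows. The ratio of the means was 1.73 for 29°C over 18°C. The log2 change was 0.82 (SE 0.13, 95% CI 0.55 to 1.08, limma adjusted p = 1.7e-05), the smallest change of the 3 called genes and the one with the smallest error. It was 0.78 (adjusted p = 8.2e-05) without the 18°C ZT19 library. It was also the member with the most reads, from 243 to 1547 per library.

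The other 4 genes did not pass between 29°C and 18°C, and their intervals leave room for sizeable changes. *Hsp26*, a cytosolic chaperone also used in the ovary, had 29.1 ± 10.7 at 18°C, 28.3 ± 12.03 at 25°C and 45.6 ± 20.02 at 29°C. Its log2 change for 29°C against 18°C was 0.58 (95% CI -0.08 to 1.24, limma adjusted p = 0.209), and 5 of 6 times were higher at 29°C. Without the 18°C ZT19 library the change was 0.65 (adjusted p = 0.189). Without the 3 ZT3 libraries, where 18°C was at 46.6 and 29°C at 21.1, it was 0.92 (adjusted p = 0.0478). That was the only 1 of 34 alternative analyses in which *Hsp26* was called. Over all of them its log2 change ran from 0.38 to 0.92, with a limma adjusted p of up to 0.476. *Hsp67Bc*, known for its part in autophagy together with the co-chaperone Starvin, had 18.9 ± 11.1, 19.6 ± 11.05 and 29.9 ± 7.78. Its log2 change was 0.79 (95% CI -0.02 to 1.60, adjusted p = 0.156), also higher at 29°C at 5 of 6 times, and 0.76 (adjusted p = 0.211) without the 18°C ZT19 library.

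*Hsp67Ba*, the member with the longest protein, had 17.6 ± 5.92 at 18°C, 26.5 ± 17.4 at 25°C and 20.9 ± 10.9 at 29°C. Its log2 change for 29°C against 18°C was 0.14 (95% CI -0.63 to 0.92, limma adjusted p = 0.843), with 29°C higher at 3 of 6 times, and 0.19 (adjusted p = 0.7995) without the 18°C ZT19 library. *Hsp27*, whose product is found in the nucleus, had the lowest mean signal at each temperature, at its analysed 3′ end. It ranged from 5.11 to 30.6 at 18°C, 6.78 to 13.3 at 25°C and 4.46 to 11.8 at 29°C. Its log2 change was -0.09 (95% CI -1.02 to 0.84, adjusted p = 0.916) with all libraries and 0.23 (adjusted p = 0.781) without the 18°C ZT19 library, where it stood at 30.6. The remaining 18°C libraries had 7.66 ± 2.63 (n = 5). Read numbers of *Hsp27* ran from 3 to 33 per library with a median of 8.5.

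The 25°C libraries separate the warm from the cold side. Between 29°C and 25°C, *Hsp22* alone of the 7 was called, higher at 29°C, where 2.06% of all rows were called, 0.814% higher and 1.24% lower. Its log2 change was 1.33 (SE 0.32, 95% CI 0.68 to 1.97, limma adjusted p = 0.0185) and the ratio of the means 2.36. That call depended on single libraries. It was lost without 25°C ZT3 (1.07, adjusted p = 0.0572), without 29°C ZT15 (1.28, adjusted p = 0.0559) and without 29°C ZT23 (1.21, adjusted p = 0.0675).

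*l(2)efl* changed by 0.46 between 29°C and 25°C (SE 0.13, 95% CI 0.20 to 0.73) and missed the threshold at a limma adjusted p of 0.0529, although every 29°C library exceeded every 25°C library, as in 1.1% of all rows. Leaving out a single library brought it under the threshold in 5 cases. These were 18°C ZT3, ZT7 and ZT15 (each 0.46; adjusted p = 0.0234, 0.0487 and 0.0332), 25°C ZT15 (0.50, adjusted p = 0.0494) and 29°C ZT3 (0.51, adjusted p = 0.0403). With time of day as a block the adjusted p was 0.0145. *Hsp23* had a log2 change of 0.95 (95% CI 0.08 to 1.83, adjusted p = 0.296), *Hsp67Bc* 0.72 (adjusted p = 0.418) and *Hsp26* 0.63 (adjusted p = 0.385). *Hsp27* had -0.14 (adjusted p = 0.930) and *Hsp67Ba* -0.31 (adjusted p = 0.780). The median of the 7 was 0.63, against 0.02 over all rows.

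On the cold side no member was called. Between 18°C and 25°C, 10.8% of all rows were called, 6.68% higher at 18°C and 4.16% lower, and the median log2 change of the 7 genes was -0.22 against -0.02 over all rows. At an unadjusted p under 0.05, 1 of the 7, *l(2)efl*, passed, against 24.3% of all rows. Its log2 change was -0.35 (95% CI -0.61 to -0.09, limma adjusted p = 0.0782), with 18°C the lower at 5 of 6 times. Without 18°C ZT15, the highest 18°C library at 572, the change was -0.45 (adjusted p = 0.0176), and with time of day as a block it was -0.35 (adjusted p = 0.0315). Without 18°C ZT19 it was -0.32 (adjusted p = 0.147), and no member was called then either. The log2 changes of the other 6 lay between -0.68 for *Hsp23* and 0.05 for *Hsp26*, or -0.80 for *Hsp23* and -0.02 for *Hsp26* without 18°C ZT19. The comparisons share libraries: the 29°C group enters both of the first and the 25°C group both of the last, so they are not independent of each other.

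**Figure D2:**
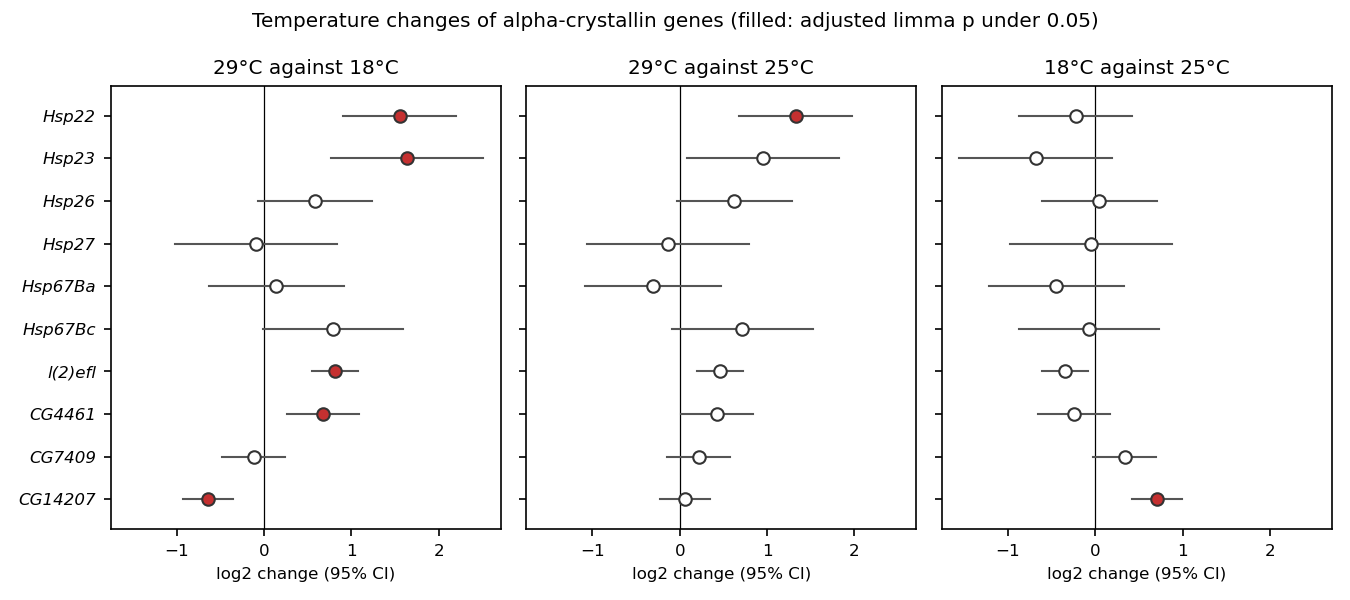
Log2 change of log2(signal + 1) of the 7 genes and of 3 further α-crystallin genes in the 3 temperature comparisons, 6 libraries per temperature. Lines are 95% confidence intervals from limma, not adjusted for the number of rows tested, and filled points passed an adjusted p of 0.05. *Hsp22*, *Hsp23* and *l(2)efl* are filled for 29°C against 18°C, *Hsp22* alone of the 7 for 29°C against 25°C, and none of the 7 for 18°C against 25°C.

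Along the 67B cluster the called and uncalled genes were interspersed. Taken by distance of the 3′ end from the left end of the cluster, the log2 changes for 29°C against 18°C were 0.79 for *Hsp67Bc* at the left end, 1.55 for *Hsp22* at 3.45 kb, 0.67 for *CG4461* at 4.78 kb, 0.58 for *Hsp26* at 4.91 kb, 0.14 for *Hsp67Ba* at 6.29 kb, 1.63 for *Hsp23* at 11.3 kb and -0.09 for *Hsp27* at 13.8 kb. *Hsp23* and *Hsp27*, on the same strand and neighbours at the right end, gave the highest and the lowest estimate of the cluster with all libraries, and their 95% intervals overlapped. Without the 18°C ZT19 library *Hsp23* was still the highest, at 1.75, but the lowest was *Hsp67Ba* at 0.19, with *Hsp27* at 0.23. Without the 18°C ZT7 library, where *Hsp23* lay under the floor, *Hsp23* had 1.19 and *Hsp22* stood above it at 1.60. The top rank of *Hsp23* thus depended on that library. The genes called in this comparison, *Hsp22*, *Hsp23* and *CG4461*, are on the plus strand, as is the uncalled *Hsp27*, and the minus-strand genes *Hsp67Bc*, *Hsp26* and *Hsp67Ba* were not called. The difference between strands was not tested. Summed over the 6 cluster members, the 18°C libraries had a signal of 131 ± 24.2, those of 25°C 152 ± 27.9 and those of 29°C 251 ± 42.7.

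**Figure D3:**
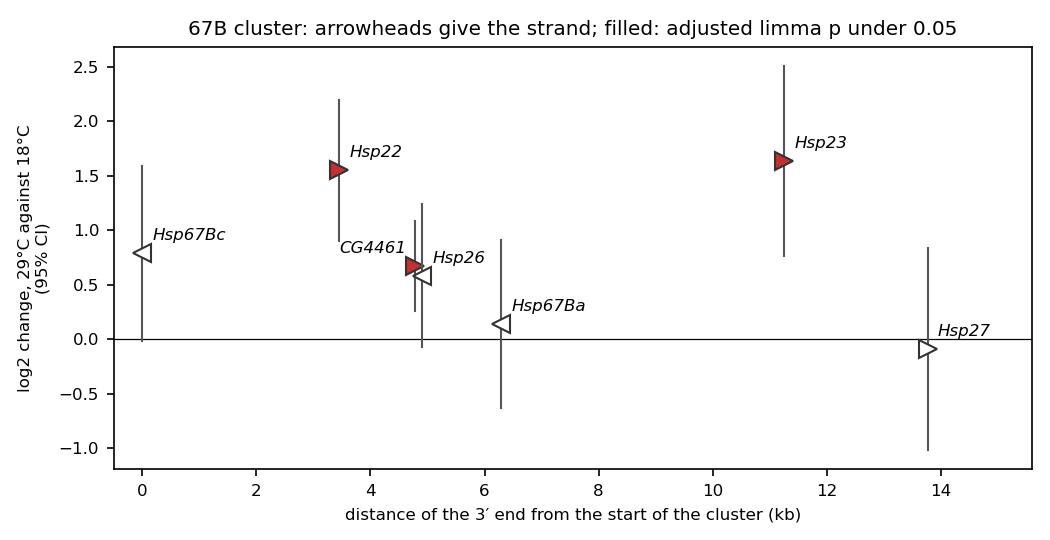
Log2 change for 29°C against 18°C (vertical axis, with 95% limma intervals) of 7 genes of the 67B cluster against the distance of their 3′ end from the left end of the cluster in kb. Arrowheads point along the strand and are filled where the adjusted p was under 0.05. *Hsp22* and *Hsp23* stand at 1.55 and 1.63, with lower values between and beyond them.

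Other α-crystallin genes of the fly moved in different directions. Of 5 on the list, 3 could be tested. *CG4461* had 129 at 18°C, 152 at 25°C and 201 at 29°C, a log2 change of 0.67 for 29°C against 18°C (limma adjusted p = 0.0141), or 0.85 (adjusted p = 0.00126) without the 18°C ZT19 library, in which it was at 225. *CG14207* went the other way, with 319 at 18°C, 197 at 25°C and 204 at 29°C. Its log2 change was -0.64 for 29°C against 18°C (limma adjusted p = 0.00103) and 0.70 for 18°C against 25°C (adjusted p = 0.000924), or -0.68 and 0.75 (adjusted p = 0.00109 and 0.00110) without the 18°C ZT19 library. Its 18°C libraries did not overlap with those of either other temperature, so its cold-side difference ran opposite in sign to the estimates of 6 of the 7 members. *CG7409* did not pass in any of the 3 comparisons, with or without that library. *CG13133* was too low to test, with a highest value of 16.3, and *CG43851* was at 0 in all 18 libraries.

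The Hsp70 system works downstream of the small heat shock proteins. The inducible *Hsp70* genes and *Hsp68*, the classical acute heat shock genes, were too low to test, with highest values of 15.2 for the *Hsp70Aa* and *Hsp70Ab* row, 9.58 for *Hsp70Bc* and 16.6 for *Hsp68*. The near-identical *Hsp70* copies share reads, so their separate values are uncertain. Of 4 tested genes in that list, *DnaJ-1*, the Hsp40 partner, rose between 18°C and 29°C, from 111 to 210.2 with 144 at 25°C. Its log2 change was 0.96 (limma adjusted p = 0.000159), or 0.87 (adjusted p = 0.000743) without the 18°C ZT19 library.

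Among the constitutive chaperones and their regulators, 5 of 12 tested rows of 10 genes rose from 18°C to 29°C and none fell. Over all rows 10.5% rose and 12.6% fell. *Hsc70-4*, the main cytosolic Hsp70 of unstressed cells, had 2369 at 18°C, 3213 at 25°C and 4144 at 29°C. Its log2 change was 0.81 for 29°C against 18°C (limma adjusted p = 1.3e-08), 0.37 against 25°C (adjusted p = 0.0121) and -0.44 for 18°C against 25°C (adjusted p = 0.000427). Without the 18°C ZT19 library these were 0.82, 0.37 and -0.45 (adjusted p = 4.6e-08, 0.0129 and 0.000686). *Hop*, which links Hsp70 and Hsp90, rose by 0.70 (adjusted p = 0.000949) and the mitochondrial chaperonin *Hsp60* by 0.47 (adjusted p = 0.000546), or by 0.68 and 0.42 (adjusted p = 0.00253 and 0.00223) without that library. *Hsp83*, the fly Hsp90, at 0.33 (adjusted p = 0.0316) and the Hsp40 *Droj2* at 0.30 (adjusted p = 0.0341) lost the call without the 18°C ZT19 library (0.31 and 0.24, adjusted p = 0.0669 and 0.0938). *stv*, which encodes Starvin, had 0.35 (adjusted p = 0.0570) and passed without that library (0.39, adjusted p = 0.0408). The chaperone estimates that passed, from 0.30 to 0.96, were below those of *Hsp22* and *Hsp23*. That of *l(2)efl*, the third called member, lay within this range at 0.82. The differences were not tested.

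**Figure D4:**
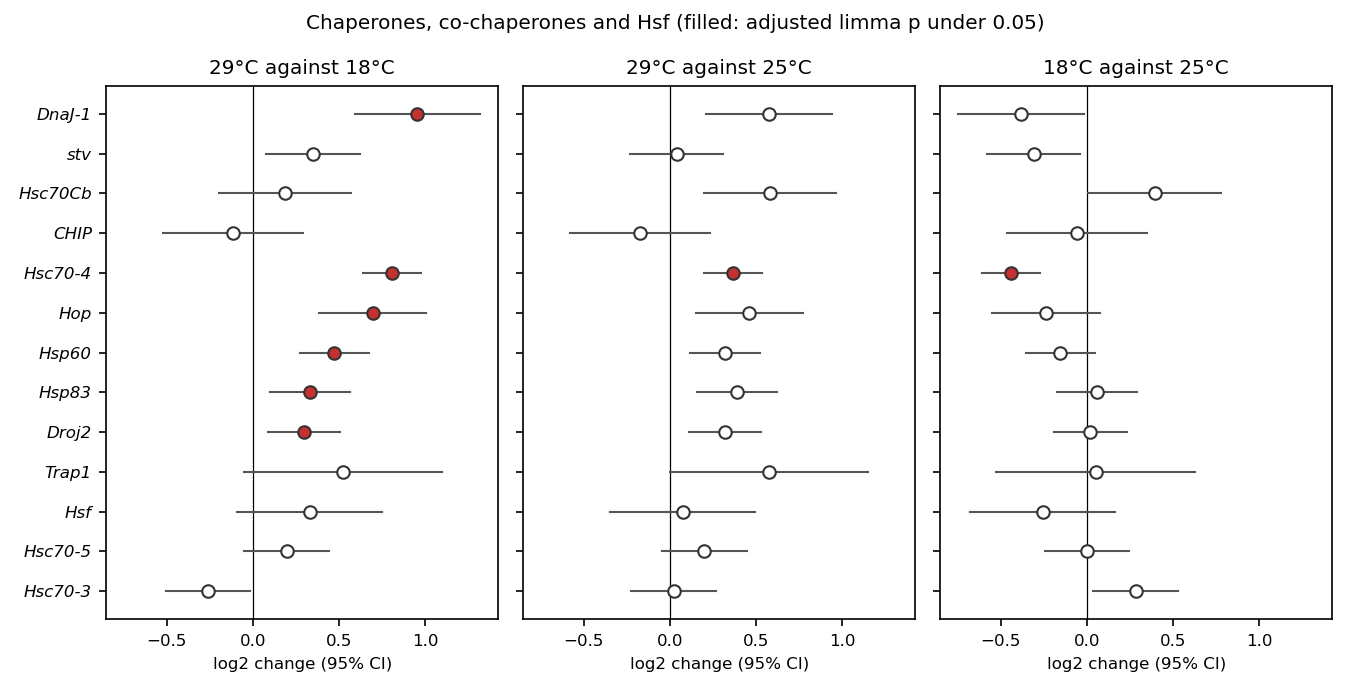
Log2 change of log2(signal + 1) of Hsp70 partners, constitutive chaperones and *Hsf* in the 3 temperature comparisons, with 95% limma intervals. Filled points passed an adjusted p of 0.05. *DnaJ-1*, *Hsc70-4*, *Hop*, *Hsp60*, *Hsp83* and *Droj2* are filled for 29°C against 18°C, and *Hsc70-4* alone in the other 2 comparisons.

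Marker genes of several tissues moved with temperature as well. All 6 tested rows of the 5 photoreceptor markers rose from 18°C to 29°C (median log2 change 0.95), against 10.5% of all rows. Their summed signal ran from 44773 to 57078 at 18°C, 69976 to 80157 at 25°C and 91062 to 115820 at 29°C. All 4 fat body markers fell, against 12.6% of all rows, with sums from 312730 to 758210, 148470 to 281000 and 102620 to 205690. At 18°C the sums came mostly from the yolk protein genes, with means of 141720 for *Yp1*, 205350 for *Yp2* and 181980 for *Yp3*. The remaining marker, *Lsp2*, had 29329. The sex of the flies is not given, and its part in these values was not tested. *Mhc*, the myosin of all muscles, fell by 0.61. None of 6 rows of neuron markers was called, with sums from 262 to 441, 348 to 451 and 382 to 511. The part of these shifts in the changes of *Hsp22*, *Hsp23* and *l(2)efl* was not tested. In whole heads a change in the number of cells that express a gene and a change in RNA per cell cannot be told apart.

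The time of day was the other axis of the design. Across the 18 libraries, with temperature in the model, no member differed between light and dark phase, as was so for nearly all rows (0.102% called). At an unadjusted p under 0.05, 2 of the 7 passed, against 9.05% of all rows. *Hsp22* had a log2 difference of light minus dark of -0.52 (95% CI -1.02 to -0.03, limma adjusted p = 0.512) and *l(2)efl* one of -0.20 (95% CI -0.40 to -0.00046, adjusted p = 0.550), both higher in the dark. *Hsp67Bc* leaned the other way, at 0.57 (95% CI -0.06 to 1.20, adjusted p = 0.598).

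Within a temperature, some genes nevertheless had light and dark libraries that did not overlap. At 29°C this held for 2 of the 7, both lower in the light, as for 8.32% of all rows. *Hsp22* had 74.9, 82.3 and 53.0 at ZT3, ZT7 and ZT11, and 103, 93.9 and 130.3 at ZT15, ZT19 and ZT23. *l(2)efl* had 620.1, 687 and 677 in the light and 835, 719 and 797 in the dark. At 25°C *l(2)efl* did the same, with 478, 474 and 487 in the light and 596, 517 and 586 in the dark, as in 5.81% of all rows. At 18°C, however, its highest value was again at ZT15 (572) but its light and dark libraries overlapped.

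*Hsp67Bc* was the 1 member with the opposite separation, at 18°C, where it had 29.3, 17.1 and 35.3 in the light and 10.2, 14.8 and 6.87 in the dark. Such a separation, higher in light at 18°C, occurred in 4.96% of all rows. At 25°C its highest value, 38.7, fell in the dark at ZT19. On the log2 scale the light-dark difference of *Hsp67Bc* reached 1.28 at 18°C, compared with 0.11 at 25°C and with 0.32 at 29°C, and a test of whether it differed between temperatures did not pass (limma adjusted p = 0.878). None of the 7 passed that test (0.0791% of all rows called), and at an unadjusted p under 0.05 none of the 7 passed either, against 5.97% of all rows.

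A common rhythm of 24 h across the 3 temperatures was not called in any of the 7 genes, against 0.497% of all rows. At an unadjusted p under 0.05 none of the 7 passed either, against 8.66% of all rows. The estimates nearest the threshold were those of *Hsp23*, with a peak-to-trough log2 difference of 1.13 and a fitted peak at 15.1 h (limma adjusted p = 0.597), and *l(2)efl*, with 0.34 and a peak at 15.1 h (adjusted p = 0.602). *l(2)efl* had its highest value at ZT15 at each of the 3 temperatures. *Hsp23* was highest at ZT11 at 18°C and 25°C, with 48.0 and 51.1, and at ZT15 at 29°C, with 69.9.

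The 7 genes did not vary as a block from library to library. Over the 18 libraries the median Pearson correlation of the 21 pairs was 0.15 (from -0.16 to 0.76), and after the mean of each temperature was removed it was -0.04 (from -0.54 to 0.63), with 9 of 21 pairs above 0. These are descriptions: the points share the library depth, and low read numbers weaken them. The highest pair over all libraries was *Hsp22* and *l(2)efl* (0.76, and 0.41 within temperatures). Within temperatures the highest was *Hsp26* and its minus-strand neighbour *Hsp67Ba* (0.63), both of which were at their highest 25°C value in the same library, ZT15. The lowest within temperatures was *Hsp22* and *Hsp67Bc* (-0.54).

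The tested genes with the pattern most like that of a member over the 18 libraries were mostly outside the chaperone lists. For *l(2)efl* they were *CG40298*, *DnaJ-1* and *CG7414* (Pearson r of 0.90, 0.89 and 0.88), for *Hsp22* *REG*, *CG1927* and *RpS15Ab* (0.85, 0.84 and 0.84) and for *Hsp23* *CG3040* (0.90), followed by *Nxf3* and *ssp2*, which carry the same values (0.86). For *Hsp26* they were *CG2059*, *MED18* and *Cyp6u1* (0.84, 0.80 and 0.78), and for *Hsp67Ba* *GluClalpha*, *CG15312* and *CG42268* (0.85, 0.83 and 0.82). For *Hsp67Bc* they were *CG42675*, *CG3857* and *ssh* (0.83, 0.82 and 0.78). For *Hsp27* they were *SRm160*, *Act88F* and *Fhos* (0.76, 0.74 and 0.72), where *Act88F* is the flight muscle actin that peaked in the same library, 18°C ZT19, as *Hsp27*. *DnaJ-1* was the 1 chaperone gene among these 21 neighbours. They were picked for the highest r among 8846 tested rows, so the high values owe part to that choice. With the mean of each temperature removed, r ran from 0.57 for *l(2)efl* and *CG7414* to 0.84 for *Hsp67Bc* and *CG42675*.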

How the data were processed

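The authors deposited 1 table of signal: 3′ read numbers per annotated transcript, divided by 1 constant per library. The submitters' processing notes name Bowtie2, TopHat, Cufflinks and the dm3 build; how they were applied and how the constants were set is not given in the sources used here. Between 97.9% and 98.5% of nonzero values per library were whole multiples of 1 read's worth, with fractions in the rest, so no count test was used, although one had been planned for recovered reads. Of 29561 rows, 667 had no values and 838 no gene name. Repeated identical values of a gene were kept once (17730 rows left) and rows differing by under 10% merged (16490 left, 13790 above 0). Rows at 10 or more in at least 6 libraries were tested: 8846 rows of 8200 genes.

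Tests were run on log2(signal + 1) with limma 3.58.1 in R 4.3.3 (3 temperature means, all 18 libraries, empirical Bayes with intensity trend) with Benjamini-Hochberg adjustment over the 8846 rows. Light against dark, its difference between temperatures and a cosine and sine of 24 h were added as terms. The procedure was run on simulated data, with normally distributed log2 values drawn independently for each row from its own mean and spread. Such data do not cover low read numbers or effects shared by a library. Poisson intervals (95%) and the floor of 3 reads cover counting error only, since copied reads are not independent molecules. The fifth time point is 18 h in some labels and 19 h in others; ZT19 was used. The members, the gene lists and the tests were chosen with earlier results of these data known. All 7 members are named, list genes that passed a temperature comparison may be named, and the 3 most correlated genes per member are given, leaving out an unnamed row that nearly repeats *l(2)efl*; *stv*, untested low genes and list genes named for not passing were singled out after their values were seen. Alternatives covered the pseudocount, the filter, repeated rows, scaling, the model and libraries left out.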

Additional observations from a re-analysis of the deposited data

Results flagged for a closer look

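In each of the 21 groups of 6 libraries (7 genes at 3 temperatures), the highest and lowest library were compared with the rest by Dixon's ratio of gap to range at its 95% critical value. A library stood apart in 3 groups. Chance would give 1.05 if the values were independent and normally distributed, which was not checked for these low read numbers. *Hsp27* at 18°C ZT19 had a signal of 30.6 (33 reads) against 5.11 to 11.8 in the others (ratio 0.739); this is the library with the flight muscle genes, and their part in the value was not tested. *Hsp67Ba* at 25°C ZT15 had 61.3 (25 reads) against 15.5 to 22.9 (ratio 0.838), and *Hsp26* had 51.5 (21 reads) against 18.8 to 30.5 (ratio 0.641) in that same library. It is the smallest library, with an estimated 1.24 M reads, and the part of its depth in both values was not tested.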

How the results depend on the processing

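In total 35 alternatives were run, 24 of them leaving out libraries. For 29°C against 18°C the calls of *Hsp22* and *l(2)efl* held in all 34 that apply, with log2 changes of 1.38 to 1.74 and 0.71 to 1.01. That of *Hsp23* held in all 33 that tested it (1.19 to 1.92, limma adjusted p up to 0.0335). No called value changed sign.

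For 29°C against 25°C the number of members called was 2, with *l(2)efl* added, with a pseudocount of 5, a value of 10 in every library, near-identical rows kept apart, library size scaling, robust empirical Bayes or time of day as a replicate block. It ranged from 0 to 2 with libraries left out. *Hsp22* was called in 28 of 34 alternatives (adjusted p from 0.00463 to 0.118), and was lost without 25°C ZT3, 29°C ZT15, 29°C ZT23, or all ZT3, ZT15 or ZT19 libraries (adjusted p = 0.0664, 0.0846 and 0.118 for the last 3). *l(2)efl* was called in 12 of 34 (adjusted p from 0.0145 to 0.159). For 18°C against 25°C the number was 1 (*l(2)efl*) with library size scaling or the replicate block, and 0 to 1 with libraries left out, the 1 arising without 18°C ZT15 or all ZT15 libraries. Light-dark and rhythm tests gave 0 members in every alternative.

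The block changed no other call. Taken over all tested rows, libraries of the same time deviated together little (18 pairs, r from -0.05 to 0.11, 2 above 0.1). Such correlations over all rows cannot show whether time of day pairs the libraries for single genes such as *l(2)efl*. With the block, 2120, 237 and 1032 of all rows were called for 29°C against 18°C, 29°C against 25°C and 18°C against 25°C. Scaling by library size moved the median of all rows by 0.185 for 29°C against 18°C and by -0.17 for 18°C against 25°C, and the share of calls that were higher from 45.4% to 69.2% and from 61.6% to 25.7%; for 29°C against 25°C it went from 39.6% to 57.5%. *Hsp27* then had 0.08 in place of -0.09 for 29°C against 18°C, uncalled in both. With every deposited row kept, 4263, 332 and 2044 rows were called in place of 2044, 182 and 959. Count tests on recovered reads were not run, because the reads were not whole in all libraries. Read numbers were as low as 2 in a library for *Hsp23*, 3 for *Hsp27* and *Hsp67Bc* and 6 for *Hsp67Ba*.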
